A study of Rattus norvegicus with 12 samples.

Results

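The nuclear receptor genes of the liver were taken as 36 listed gene symbols, of which 33 had a row among the 16478 genes in the count files. The list covers the main ligand-activated and orphan receptors of the liver, but it is not the whole family. Nr1d2, Nr6a1 and Rarb were listed and matched no row, and they were not analysed here. The samples were livers of 6 female and 6 male ZSF1 rats of the obese phenotype, all 16 weeks old and given no treatment, with 1 library per animal. The obesity of this strain comes from leptin receptor mutations received through both parental lines, so both sexes carry the defect, and no lean animals were compared here. All animals had free access to chow and a light and dark cycle, and the hour of tissue collection was not given. Animals are named by sex and by the number in their label: females 7, 8, 9, 10, 12 and 13, and males 1 to 6. The comparison asks how the receptors that tune liver metabolism differ between female and male livers in an obese strain.

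Nuclear receptors are transcription factors that bind DNA directly and, in most cases, change their activity when a small fat-soluble molecule such as a steroid, a fatty acid, an oxysterol, a bile acid, a retinoid or a drug sits in their binding pocket. Many of those in liver act as pairs with a retinoid X receptor (RXR), and they recruit coactivators or corepressors to switch their target genes. In the liver they set the pace of fatty acid oxidation, lipid synthesis, bile acid and cholesterol handling, drug clearance, glucose production and daily rhythm. A transcript level says nothing of how much ligand is present or how active the receptor protein is.

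Liver identity was checked first. Summed over the hepatocyte markers, the signal was between 239274 and 318215 counts per 1000000 (CPM) in females and between 206752 and 265100 CPM in males. The albumin gene Alb alone stood at 167127 to 242688 CPM in females and 119216 to 181686 CPM in males. CPM values here are counts scaled to library size with TMM factors. Female libraries held between 6763879 and 24837602 counts in genes, and male libraries between 11381428 and 29232871, at which 3 counts equal 0.103 to 0.444 CPM, so counting error is large for genes near it.

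The stretch before the start of transcription is shown for 2 receptor genes that differed widely between the sexes, Nr1i3 and Esr1, which encode the constitutive androstane receptor and estrogen receptor alpha. Both are RefSeq sequences of assembly GRCr8, given 5′ to 3′ and covering the 250 bases before the annotated start. The stretches are chr13:86165170-86165419 on the plus strand for Nr1i3 and chr1:43641845-43642094 on the plus strand for Esr1. Capitals mark a match to one of the searched motifs.
Nr1i3: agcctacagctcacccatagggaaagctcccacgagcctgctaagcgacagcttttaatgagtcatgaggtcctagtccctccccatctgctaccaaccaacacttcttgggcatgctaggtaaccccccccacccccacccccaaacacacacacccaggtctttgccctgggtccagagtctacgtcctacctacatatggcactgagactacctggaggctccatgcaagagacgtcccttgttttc
Esr1: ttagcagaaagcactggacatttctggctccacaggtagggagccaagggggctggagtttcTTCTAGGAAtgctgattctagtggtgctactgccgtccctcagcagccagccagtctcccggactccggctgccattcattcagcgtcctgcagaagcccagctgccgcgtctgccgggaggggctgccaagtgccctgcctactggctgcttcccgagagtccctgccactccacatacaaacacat
The search covered 250 bases before to 50 after the start on both strands, for 28 receptor genes with such a window and a row in the count files. The motif TTCNNNGAA, known for binding STAT5, a factor that growth hormone activates in liver, was found in 1 of 28, Esr1, where it begins 188 bases before the start (position -188). Over 33469 rat promoter windows of the same length 8.87% held it. The nuclear receptor hexamer AGGTCA was found in 1 of 28, Nr5a2, against 16.2% of all windows, and the glucocorticoid receptor core ACANNNTGT in 1 of 28, Rxrg, against 6.86%. The cyclic AMP response element TGACGTCA was in none of the 28 windows and in 1.83% of all windows. These motifs do not overlap in the matches found. A match is a description of these letters and not a binding site.

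Female and male livers differed in most of their measured receptor genes, usually by less than 2-fold and in both directions. Of 33 receptor genes with a row, 29 had enough reads to be tested, and 18 of these (62.1%) had an adjusted p under 0.05 in edgeR's quasi-likelihood test with Benjamini-Hochberg adjustment over 9943 genes, which is what "called" means below. Over all 9943 genes 43.2% were called. Higher in females were 8, against 20.5% of all genes, and higher in males were 10, against 22.7%. The difference was at least 2-fold for 5 called receptor genes, where 5.75% of all genes were called at that size, and under 2-fold for 13. The sexes did not overlap for 9 of 29 (31%), against 22.8% of all genes. The median log2 fold change of female over male was -0.00 for the 29 and -0.01 for all genes. All receptor genes together held 1113 ± 41.5 CPM in females and 1111 ± 83.2 CPM in males (SD, n = 6 each). The labels number the animals as separate samples and give no litter, cage or batch, so the p-values measure the spread between these animals. As livers were sequenced whole, fewer cells of a type and less RNA per cell cannot be told apart.

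**Figure D1:**
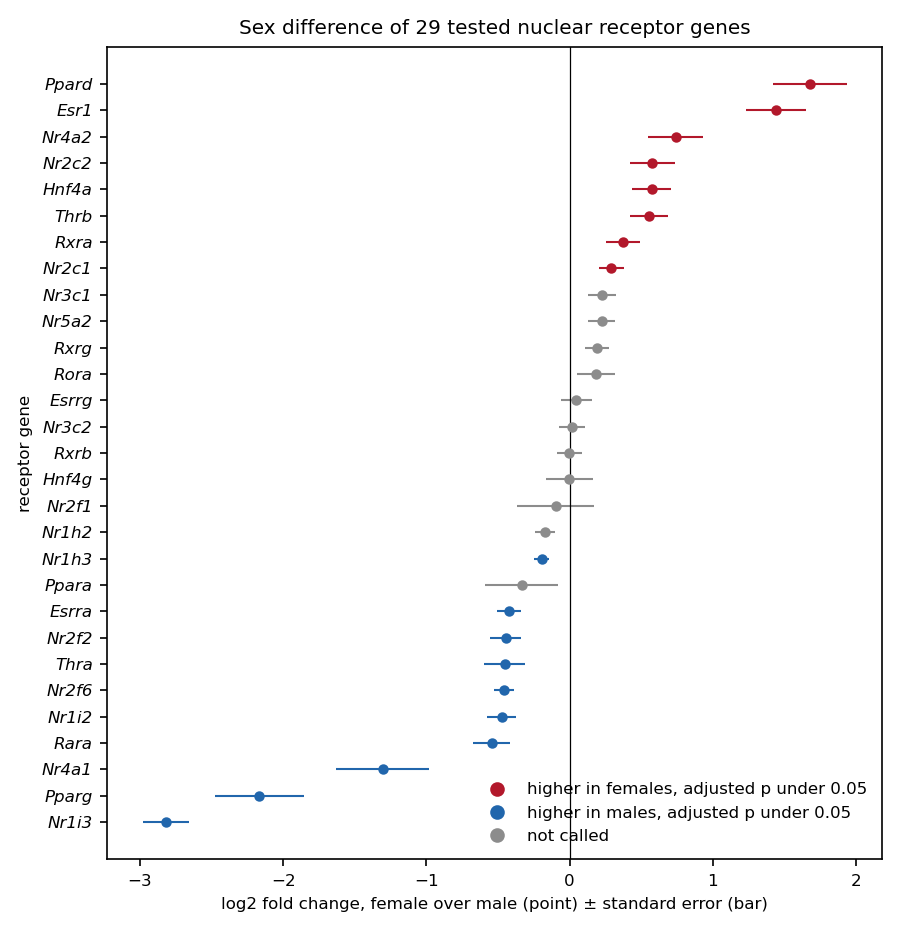
Log2 fold change of female over male (points, with standard error as bars) for the 29 tested receptor genes, coloured by whether they were called. Ppard, at 1.68, lies farthest to the female side and Nr1i3, at -2.82, farthest to the male side, and the uncalled genes lie between -0.34 and 0.23.

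By read support, the receptor genes fell into the same broad order in all animals. Nr1i2, Nr1h3, Hnf4a, Nr3c1 and Rxra took ranks 1 to 6 of the 33 in every animal. Nr1i2 had the most reads in all 6 males and in female 12, and Hnf4a in females 7, 8, 10 and 13. Reads were not divided by transcript length, so this is an order of reads and not of transcript abundance. Nr1i3 shifted most in this order, with rank 25 in each of the 6 females and ranks 10 to 13 in the males.

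The drug-sensing receptors were both higher in males. Nr1i3, the constitutive androstane receptor (CAR), which switches on genes of drug and steroid clearance, had 2.001, 2.99 and 3.56 CPM as the lowest, median and highest of the females, against 14.9, 22.3 and 24.2 CPM in the males. The highest female lay far below the lowest male. The difference was 7.05-fold toward males (log2 -2.82, SE 0.164, adjusted p = 1.19e-08), the widest of the 29. Nr1i2, the pregnane X receptor (PXR), which senses drugs, steroids and bile acids, had 134, 149 and 192 CPM in females and 176, 222 and 253 CPM in males. Its difference was smaller, at 1.39-fold toward males (log2 -0.47, SE 0.103, adjusted p = 0.00189), and female 12, at 192 CPM, lay above males 4 and 5. Because CAR and PXR share many target genes, their balance was also described within each animal: the count ratio of Nr1i3 to Nr1i2 was 0.0132, 0.0200 and 0.0237 in females and 0.0717, 0.0965 and 0.114 in males, without overlap.

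Genes known as CAR and PXR targets went in both directions. Of 21 tested, 7 went toward females and 10 toward males, and the median log2 fold change was -0.34, against -0.01 over all genes. The share called was 81%, against 43.2% of all genes. Akr1b7, an aldo-keto reductase gene and a target known from mouse, had 699, 815 and 1033 CPM in females and 1.33, 1.98 and 2.74 CPM in males. The sulfotransferase gene Sult2a1 was 3.67-fold and the P450 gene Cyp2a1 2.52-fold higher in females. Toward males, Cyp3a2, a drug-oxidizing P450, had 23.6, 32.9 and 47.2 CPM in females and 241, 523 and 597 CPM in males. Cyp3a18 was 9.72-fold higher in males. Cyp2b1, the classical marker of CAR activation in rat, had 2.56, 5.67 and 9.09 CPM in females and 8.29, 17.5 and 24.0 CPM in males, a 2.93-fold difference toward males (adjusted p = 0.000975). Reads of closely related P450 genes may have been shared between copies, since how multiply mapped reads were handled was not given.

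Of the peroxisome proliferator-activated receptors (PPARs), which sense fatty acids, Ppard was higher in females, Pparg was higher in males and Ppara was not called. Ppard, a PPAR expressed in most tissues, had 14.8, 33.4 and 44.1 CPM in females and 7.63, 9.35 and 14.0 CPM in males. It was 3.201-fold higher in females (log2 1.68, SE 0.256, adjusted p = 0.000243). The lowest female, 12, and the highest male, 2, stood nearly side by side, and otherwise the sexes were well apart. Pparg, the PPAR of fat cell development, which is low in lean liver and can rise in fatty liver, had 0.364, 0.405 and 1.34 CPM in females and 2.10, 2.77 and 3.81 CPM in males. Every male lay above every female, with a difference of 4.49-fold toward males (log2 -2.17, SE 0.308, adjusted p = 6.71e-05). It rested on few reads, 64 counts in all females and 326 in all males, a ratio of 4.50 toward males with an exact 95% counting interval of 3.44 to 5.99. Summed adipocyte markers were 88.0 to 96.1 CPM in females and 105 to 126 CPM in males. Nearly all of it was Cidec, a lipid droplet gene that fatty hepatocytes also express. Among the other listed markers, Fabp4 had 0.584 to 1.27 CPM in females and 0.579 to 3.02 CPM in males. Adipoq reached at most 0.0874 CPM and Retn at most 0.0724 CPM in any animal, and Lep was at 0. The part of fat cells in the Pparg difference was not tested.

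Ppara, the PPAR that drives fatty acid oxidation in hepatocytes, was not called (12.7, 16.1 and 33.7 CPM in females, 13.4, 23.9 and 33.4 CPM in males; log2 -0.34, SE 0.255, adjusted p = 0.315). The sexes overlapped fully, with female 12 above all males. Leaving out female 12 gave log2 -0.59 and adjusted p = 0.0271, higher in males. Within each animal the count ratio of Ppard to Pparg was 19.7, 76.9 and 107 in females and 2.20, 3.45 and 4.85 in males, without overlap. The ratio of Ppard to Ppara was 0.440, 2.19 and 3.46 in females and 0.247, 0.431 and 0.618 in males, and female 12, the lowest of the females, lay among the males.

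Of 23 tested genes known as PPAR-alpha targets, 2 were higher in females and 14 in males, with a median log2 fold change of -0.26. The share called was 69.6%, against 43.2% of all genes. The omega-hydroxylase gene Cyp4a2 had 72.8, 92.1 and 124 CPM in females and 1164, 1924 and 2118 CPM in males. Cyp4a3, of the same family, was 3.46-fold and Vnn1, a pantetheinase gene, 3.02-fold higher in males, and neither overlapped between the sexes. Going the other way, Pdk4, a kinase that holds back glucose oxidation, had 67.4, 83.9 and 101 CPM in females and 26.0, 53.9 and 61.4 CPM in males (1.73-fold toward females, adjusted p = 0.0041). Leaving out any 1 of females 12 and 13 and males 1, 2, 5 and 6 left 1 higher in females. The number higher in males was 12 to 14 when 1 animal was left out.

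**Figure D2:**
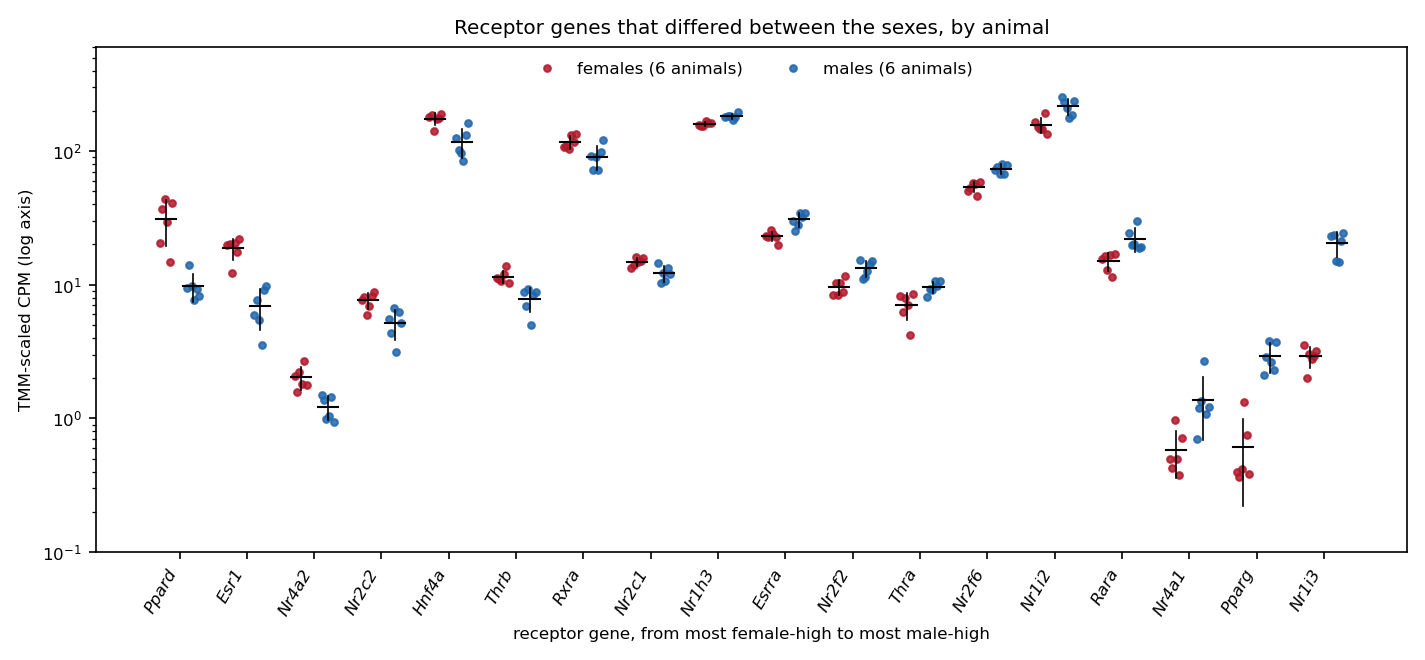
TMM-scaled CPM on a log axis of the 18 called receptor genes, with 1 point per animal and black crosses for the mean and SD of each sex (6 animals each). Points of the sexes stand apart for Ppard, Esr1, Nr4a2, Thrb, Nr1h3, Nr2f6, Rara, Pparg and Nr1i3, and they overlap for the others.

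Of the retinoid X receptors, which pair with PPARs, LXRs, CAR, PXR and the thyroid and retinoic acid receptors, Rxra was called. It had 104, 113 and 134 CPM in females and 71.7, 90.6 and 122 CPM in males, 1.29-fold higher in females (log2 0.37, SE 0.12, adjusted p = 0.0218). Male 6, at 122 CPM, lay among the females. Without male 4 and female 12 together its adjusted p was 0.0540. Rxrb (13.2, 15.03 and 18.3 CPM in females, 13.6, 14.8 and 17.4 CPM in males, adjusted p = 0.991) was not called. Neither was Rxrg (41.0, 54.0 and 61.9 CPM in females, 43.9, 45.6 and 50.3 CPM in males, adjusted p = 0.0724), which was called toward females without female 12, the lowest of all 12 animals.

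Liver X receptors respond to oxysterols and drive cholesterol export and fatty acid synthesis. Nr1h3, LXR alpha, had 153, 159 and 167 CPM in females and 170, 182 and 195 CPM in males. The groups did not overlap although the difference was 1.14-fold toward males (log2 -0.19, SE 0.0508, adjusted p = 0.00632), as both sexes varied little. Nr1h2, LXR beta, had 33.8, 35.9 and 38.7 CPM in females and 36.4, 39.5 and 47.7 CPM in males and was not called (log2 -0.17, adjusted p = 0.066), but it was called toward males without male 3 or male 5. Of 12 tested LXR targets, 2 were higher in females and 1 in males (25% called, against 43.2% of all genes). Scd, a fatty acid desaturase gene, had 135, 430 and 521 CPM in females and 61.8, 104 and 143 CPM in males (3.56-fold toward females, adjusted p = 0.00113), where female 12, at 135 CPM, overlapped the males. Scd1, a related desaturase row with far more reads, had 5423, 13014 and 19508 CPM in females and 7570, 10653 and 11559 CPM in males and was not called (1.30-fold toward females, adjusted p = 0.23), and reads of such similar genes may have been split between the rows. The cholesterol exporter gene Abca1 was 1.56-fold higher in females. Without male 4 the number higher in females was 5, and without male 4 and female 12 together 6 were higher in females and 1 in males. The number higher in males was 0 without female 8, 9 or 10 or male 1, 4 or 5, and 2 without female 12.

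Hepatocyte identity depends on HNF4 alpha, an orphan receptor that holds up genes of lipoprotein, clotting and bile acid metabolism. Hnf4a had 141, 177 and 190 CPM in females and 84.6, 113 and 163 CPM in males. It was 1.49-fold higher in females (log2 0.57, SE 0.137, adjusted p = 0.00415), and female 9 and male 6 lay in the range of the other sex. Its relative Hnf4g had 3.46, 4.64 and 5.34 CPM in females and 3.02, 4.62 and 6.08 CPM in males and was not called (adjusted p = 0.995). Nr5a2, liver receptor homolog 1, which supports bile acid synthesis, had 21.3, 25.9 and 28.0 CPM in females and 17.4, 22.5 and 25.7 CPM in males and was not called (log2 0.22, adjusted p = 0.0717), although it was called toward females without female 9 or male 5. Of 23 tested HNF4 alpha targets, 8 went toward males and 3 toward females, with a median log2 fold change of -0.04. The share called, 47.8%, was near the 43.2% of all genes. With 1 animal left out, 6 to 9 went toward males and 3 to 4 toward females. Mttp, which loads lipid onto lipoproteins, had 449, 474 and 655 CPM in females and 269, 291 and 345 CPM in males, and the clotting factor genes F7 and F8 were 1.64-fold and 1.498-fold higher in females. Toward males, Apoa4, an apolipoprotein gene, was 1.80-fold higher. Pck1, the gluconeogenic carboxykinase gene, had 257, 475 and 1743 CPM in females, of which female 12 was the highest, and 1807, 2370 and 2898 CPM in males.

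Orphan receptors of the COUP-TF group, which mostly repress transcription, were higher in males where they were called. Nr2f6 had 46.3, 54.8 and 58.9 CPM in females and 66.8, 74.3 and 80.6 CPM in males, 1.37-fold toward males without overlap (log2 -0.46, SE 0.07, adjusted p = 0.000131). Nr2f2, COUP-TFII, had 8.31, 9.56 and 11.6 CPM in females and 10.99, 13.4 and 15.4 CPM in males, 1.36-fold toward males (adjusted p = 0.00428), with female 13 above males 2 and 3. Nr2f2 is known in vein endothelium as well as in hepatocytes. The endothelial markers, given further on, were higher in females for 5 of 6 tested. Pecam1, of the same list, had 5.33 to 6.91 CPM in females, 12.0 CPM in male 4 and 3.23 to 5.30 CPM in the other males. The part of cell makeup in the Nr2f2 difference was not tested. Nr2f1 had 0.693 to 1.96 CPM in females and 0.797 to 1.54 CPM in males and was not called (adjusted p = 0.8). The testicular receptors went the other way: Nr2c1 (13.2, 14.9 and 16.1 CPM in females, 10.2, 12.1 and 14.6 CPM in males) was 1.22-fold and Nr2c2 (5.96, 7.92 and 8.80 CPM in females, 3.13, 5.33 and 6.64 CPM in males) 1.49-fold higher in females, with adjusted p = 0.0157 and adjusted p = 0.00884, and both overlapped between the sexes.

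Among the steroid receptors Esr1 stood out. Estrogen receptor alpha is the main estrogen receptor of hepatocytes. Esr1 had 12.3, 19.97 and 21.8 CPM in females and 3.57, 6.80 and 9.73 CPM in males, without overlap. It was 2.71-fold higher in females (log2 1.44, SE 0.209, adjusted p = 0.000115), and male 4 was the lowest of all. Esr2, estrogen receptor beta, had 0 counts in all 12 libraries, which allows a level of up to 0.0148 CPM over the pooled libraries. Pgr, the progesterone receptor, had 1 count in all females and 4 in all males, too few to compare.

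Nr3c1, the glucocorticoid receptor, had 122, 131 and 141 CPM in females and 97.9, 108 and 153 CPM in males. It was not called (log2 0.23, adjusted p = 0.068), and male 3, at 153 CPM, lay above every other animal. Without male 3 it was called toward females (adjusted p = 0.000872). Nr3c2, the mineralocorticoid receptor, which also binds glucocorticoids, had 9.78, 11.6 and 12.6 CPM in females and 9.78, 10.95 and 12.9 CPM in males (adjusted p = 0.894). Genes known to respond to the glucocorticoid receptor were mostly higher in males where called: 8 of 20 tested, against 1 higher in females, with a median log2 fold change of -0.48. The share called was 45%, near the 43.2% of all genes, of which 22.7% were higher in males. Sds, the serine dehydratase gene of amino acid breakdown, had 2.49, 3.44 and 6.93 CPM in females and 75.1, 145 and 224 CPM in males. The call toward females was lost without female 12 or 13 or male 1, 2, 5 or 6. In the fit without male 2, the 2 calls toward females were other genes. The number higher in males was 7 to 9 when 1 animal was left out.

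Estrogen-related receptors are orphan receptors that bind no estrogen, and ERR alpha drives mitochondrial genes. Esrra had 19.97, 23.0 and 25.6 CPM in females and 25.1, 31.1 and 34.7 CPM in males, 1.34-fold higher in males (log2 -0.42, SE 0.0853, adjusted p = 0.00115), with female 9 and male 2 in the overlap. Esrrg had 5.04, 6.17 and 6.52 CPM in females and 4.97, 5.70 and 7.02 CPM in males and was not called (adjusted p = 0.755). Of 13 tested ERR alpha targets, 8 went toward males and 2 toward females, with a median log2 fold change of -0.26. The share called was 76.9%, against 43.2% of all genes. Cycs, cytochrome c, was 1.47-fold, the acyl-CoA dehydrogenase gene Acadm 1.44-fold and Sdhb, of the respiratory chain, 1.28-fold higher in males. Acss2, an acetyl-CoA synthetase gene, had 111, 206 and 315 CPM in females and 68.9, 89.6 and 101 CPM in males. The list shares Acadm and Pdk4 with the PPAR-alpha list, so the counts are not independent.

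Thyroid hormone receptors were called in opposite directions. Thrb, the main isoform gene in liver, had 10.3, 11.1 and 13.8 CPM in females and 4.99, 8.58 and 9.29 CPM in males, 1.47-fold higher in females without overlap (log2 0.56, SE 0.134, adjusted p = 0.00385). Thra had 4.21, 7.46 and 8.59 CPM in females and 8.04, 9.56 and 10.6 CPM in males, 1.37-fold higher in males (log2 -0.45, SE 0.143, adjusted p = 0.0184), and male 1 fell within the female range. Thra lies across from the clock receptor gene Nr1d1 on the opposite strand, and whether the counting kept reads of the 2 apart is not known: the naming of the count tables mentions strand, but no setting is given. Nr1d1 itself had 3.396, 15.8 and 25.0 CPM in females and 28.5, 41.4 and 68.9 CPM in males (3.01-fold toward males, adjusted p = 0.00497). The count ratio of Thrb to Thra was 1.20, 1.54 and 3.27 in females and 0.469, 0.844 and 1.10 in males, without overlap between the sexes. Of 13 tested thyroid hormone targets, 3 were higher in each direction (46.2% called, against 43.2% of all genes). Me1, the malic enzyme gene, was 1.80-fold and Acaca, of fatty acid synthesis, 1.66-fold higher in females, and Cpt1a, the carnitine transferase gene of fatty acid oxidation, 1.79-fold higher in males.

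Rara, the retinoic acid receptor alpha gene and the only retinoic acid receptor gene with a row among those listed, had 11.5, 16.0 and 17.1 CPM in females and 18.9, 19.9 and 30.1 CPM in males. It was 1.46-fold higher in males without overlap (log2 -0.54, SE 0.13, adjusted p = 0.00373), and male 4 was the highest. Of 6 tested retinoic acid targets, 2 were higher in females and 1 in males (50% called, against 43.2% of all genes). The number higher in males was 2 without female 7, 8, 10, 12 or 13 or male 1 or 2. Cyp26a1, which breaks down retinoic acid, had 8.67, 10.1 and 13.2 CPM in females and 1.76, 3.85 and 8.69 CPM in males, and the transglutaminase gene Tgm2 was 1.35-fold higher in females. Dhrs3, which returns retinaldehyde to retinol, was 1.18-fold higher in males.

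Vdr, the vitamin D receptor, known in rat liver mainly from cells other than hepatocytes, had too few reads to enter the test. Its counts were 0, 5, 3, 3, 3 and 10 in females 7, 8, 9, 10, 12 and 13, and 0, 0, 0, 0, 1 and 1 in males 1 to 6. Over all animals this is 24 counts in females and 2 in males, a ratio of 13.6 with an exact 95% counting interval of 3.37 to 118. With no filter on low counts its adjusted p was 0.00272. Of 6 tested endothelial markers 5 were higher in females, and of 12 macrophage markers 3. Stellate cell markers gave 2 in each direction of 10, and bile duct markers 0 calls of 4. The part of these cell types in the Vdr difference was not tested.

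**Figure D3:**
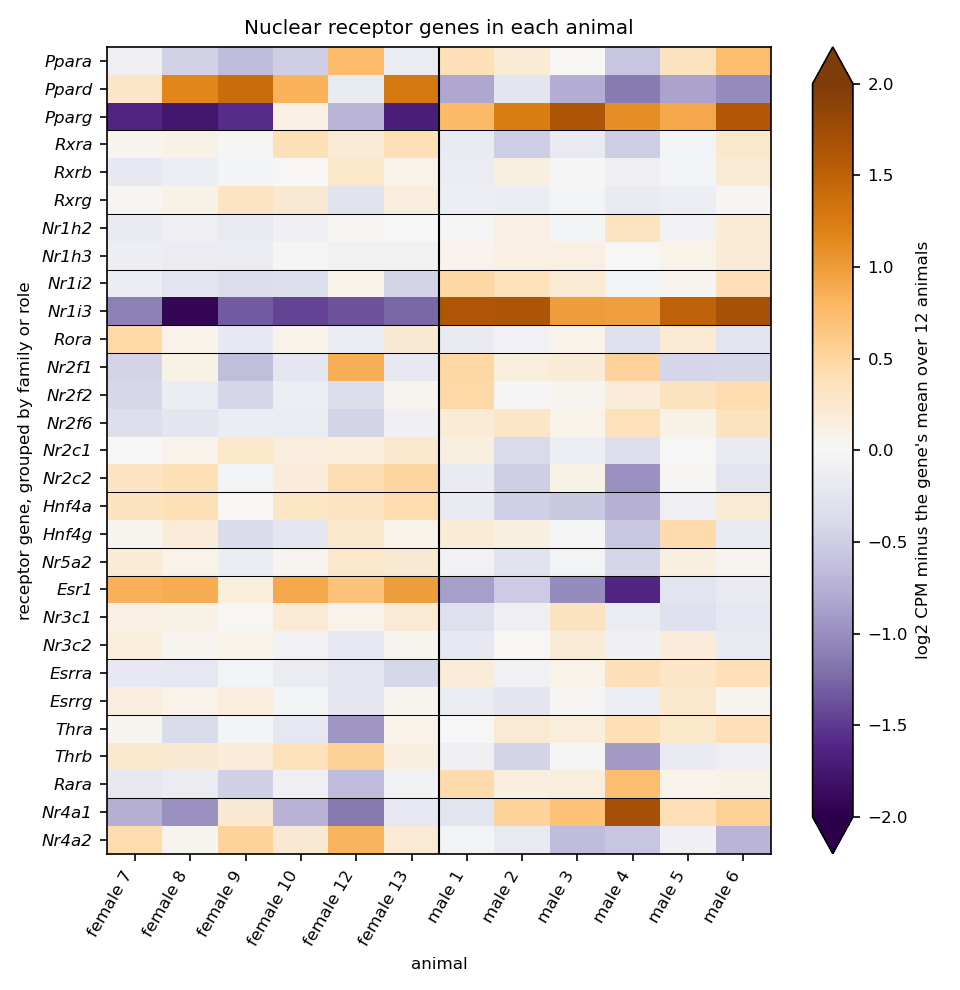
Log2 CPM minus the mean over the 12 animals for each tested receptor gene (rows, grouped by family or role), with females left of the line and males right of it. Nr1i3 and Pparg are low in females, and Ppard and Esr1 are high in females. Male 4 has the lowest Esr1, at 3.57 CPM, and the highest Nr4a1, at 2.69 CPM.

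Clock receptors repress or activate genes of the daily rhythm through shared DNA elements. Rora, a retinoid-related orphan receptor, had 3.88, 4.65 and 6.12 CPM in females and 3.62, 4.07 and 5.14 CPM in males and was not called (adjusted p = 0.275). Genes known to be under REV-ERB and ROR receptors gave 5 of 9 tested that were higher in females and 1, Nr1d1, that was higher in males. The share called was 66.7%, against 43.2% of all genes. Arntl, the clock activator BMAL1, had 31.0, 37.4 and 42.6 CPM in females and 10.6, 21.4 and 29.1 CPM in males, 1.89-fold higher in females without overlap, and its relative Npas2 was 2.66-fold higher in females. Clock and clock output genes are given beside them: of 11 tested (72.7% called), 5 went toward females and 3 toward males. They share genes such as Arntl and Npas2 with the REV-ERB and ROR list, so the counts are not independent. Dbp, a strongly rhythmic factor, had 3.58, 5.503 and 16.2 CPM in females and 23.1, 45.6 and 95.5 CPM in males. As the hour of collection was not given for either sex, hour and sex cannot be told apart for these genes.

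NR4A receptors are orphan receptors that respond fast to stress and hormones, as immediate early genes do. Nr4a1, NUR77, had 0.376, 0.497 and 0.970 CPM in females and 0.699, 1.21 and 2.69 CPM in males, 2.47-fold higher in males (log2 -1.31, SE 0.325, adjusted p = 0.00482). The highest male, 4, stood well above the rest, and the sexes overlapped. Its counts were 53 in all females and 151 in all males, a ratio of 2.52 toward males with a counting interval of 1.83 to 3.51. Nr4a2, NURR1, went the other way without overlap, with 1.58, 1.93 and 2.71 CPM in females and 0.945, 1.20 and 1.49 CPM in males (1.67-fold toward females, log2 0.74, SE 0.192, adjusted p = 0.00615). Nr4a3 had 17 counts in all females and 9 in all males, a ratio of 2.14 with a counting interval of 0.901 to 5.44, which does not show a direction. Immediate early genes gave 2 higher in females and 3 in males of 12 tested (41.7% called, against 43.2% of all genes). Junb, a member of the AP-1 family, was 2.26-fold higher in males, and male 4, at 39.8 CPM, was its highest animal as well.

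**Figure D4:**
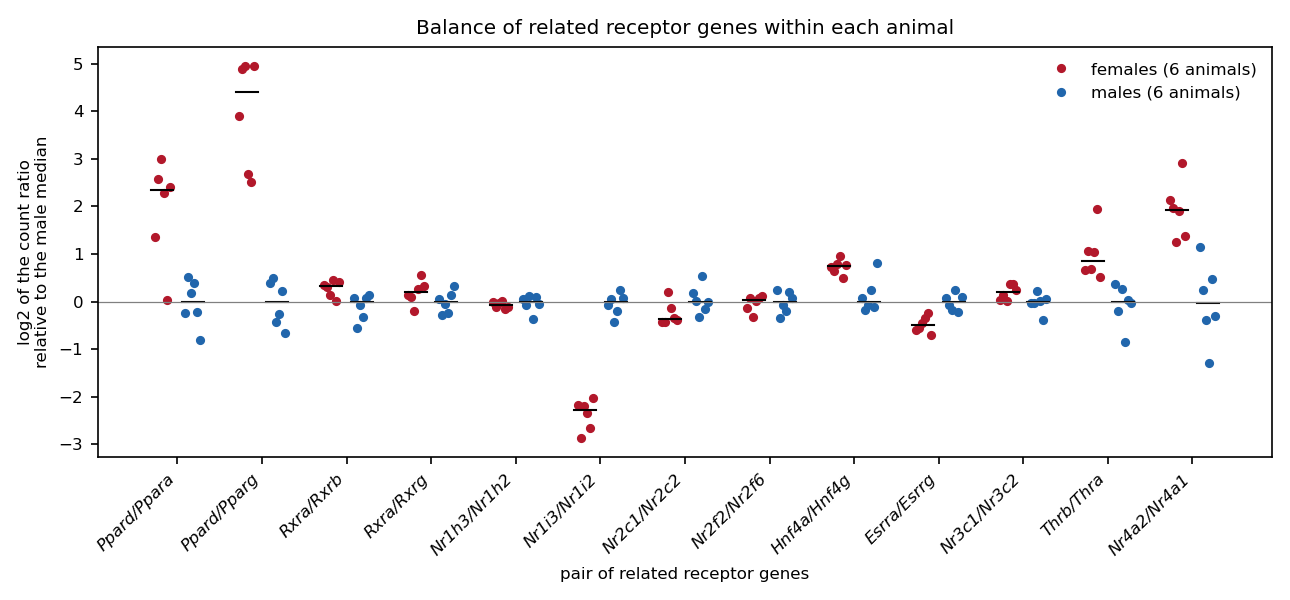
Count ratio of 2 related receptor genes within each animal, as log2 relative to the male median, with 1 point per animal and black lines for the medians. The sexes do not overlap for 5 of 13 pairs: Ppard/Pparg, Nr1i3/Nr1i2, Esrra/Esrrg, Thrb/Thra and Nr4a2/Nr4a1.

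The pairs were picked after their values were seen, and their ratios are a description. The remaining pairs without overlap were Esrra to Esrrg, at 3.28, 3.80 and 4.51 in females and 4.59, 5.34 and 6.33 in males, and Nr4a2 to Nr4a1, at 2.29, 3.65 and 7.20 in females and 0.388, 0.954 and 2.13 in males. The ratio of Nr1h3 to Nr1h2, at 4.16, 4.41 and 4.64 in females and 3.57, 4.61 and 4.97 in males, overlapped widely.

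Coregulators are the proteins that receptors recruit, and those called were higher in females. Of 18 tested, 6 went toward females and 0 toward males, with a median log2 fold change of 0.08. This is 33.3% called, against 43.2% of all genes. The number toward females was 4 without female 7 and 7 without female 12. In edgeR 2 were higher in males at an unadjusted p under 0.05, DESeq2 and limma-voom called 0 as well, and edgeR called 2 without female 9 and 1 without male 4. Trim24, a coregulator that binds retinoic acid receptor alpha in mouse liver, had 61.5, 67.4 and 81.3 CPM in females and 3.72, 4.87 and 6.13 CPM in males. The coactivator gene Ncoa2 had 26.1, 30.9 and 34.2 CPM in females and 13.2, 19.8 and 23.0 CPM in males, 1.64-fold higher in females without overlap (adjusted p = 0.000485).

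Genes that make, break down or carry receptor ligands split evenly: of 25 tested, 10 went toward females and 9 toward males. The share called was 76%, against 43.2% of all genes. Srd5a1, the steroid 5-alpha-reductase gene, had 1294, 1399 and 1740 CPM in females and 118, 161 and 458 CPM in males. Serpina6, corticosteroid-binding globulin, was 3.56-fold and the aldehyde dehydrogenase gene Aldh1a7 5.66-fold higher in females. Hsd11b1, which regenerates active glucocorticoid inside the cell, had 53.0, 91.3 and 148 CPM in females and 531, 628 and 756 CPM in males. Rdh2, a retinol dehydrogenase gene, was 5.65-fold higher in males, and Cyp7b1, which clears oxysterols and some steroids, 2.49-fold higher in males. Serpina6 and Hsd11b1 both act on the ligand of Nr3c1, whose own transcript was not called.

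**Figure D5:**
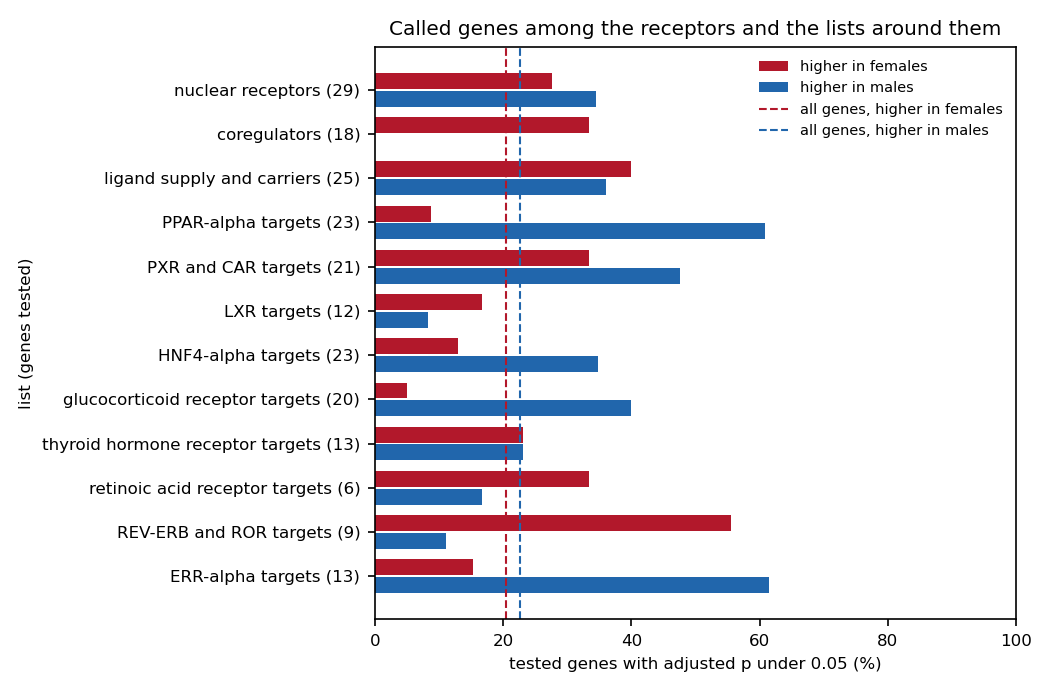
Share of tested genes called toward females (red) and toward males (blue) among the nuclear receptors and the lists of coregulators, ligand genes and known targets, with the number tested in brackets and dashed lines for all 9943 genes (20.5% and 22.7%). PPAR-alpha (2 and 14 of 23) and ERR alpha targets (2 and 8 of 13) have the longest bars toward males, and REV-ERB and ROR targets (5 and 1 of 9) toward females.

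Counting each target gene once over all target lists, 25 of 127 tested went toward females and 49 toward males (58.3% called, against 43.2% of all genes). The target lists hold genes that several receptors and other factors control, and they are listed here for their known link to a receptor. Their calls do not tell which receptor was active.

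Markers of other liver cells differed between the sexes too. The share called was 83.3% of endothelial, 25% of macrophage, 40% of stellate cell and 45.5% of hepatocyte markers, against 43.2% of all genes. Of 6 tested endothelial markers, 5 went toward females and 0 toward males (0 toward males also at an unadjusted p under 0.05 and with DESeq2 and limma-voom), and their sum was 91.0 to 115 CPM in females and 33.3 to 92.8 CPM in males. The number toward females was 4 without female 8 or male 2. Flt4, an endothelial growth factor receptor gene, had 4.43, 5.63 and 6.47 CPM in females and 1.23, 1.98 and 3.19 CPM in males. Of 12 tested macrophage markers, 3 went toward females and 0 toward males (0 toward males again at an unadjusted p under 0.05 and with both other tools). The number toward females was 10 without male 4, and it was 2 without female 8 or 12 or male 1, 3 or 6. The sum of the macrophage markers was 279 to 404 CPM in females and 158 to 588 CPM in males, and male 4 alone made the top of the male range. Lyz2 was the only 1 of the 13 with a row that had 0 counts in all animals, and why was not tested. Stellate cell markers gave 2 in each direction of 10 tested (sums 191 to 276 CPM in females and 154 to 283 CPM in males), with 4 higher in females without male 4, 1 toward females when any of females 7, 8, 12 and 13 or males 1, 3, 5 and 6 was left out, and 1 toward males when any of females 7, 9, 10 and 13 or males 1 to 5 was. Of 11 hepatocyte markers, 1 was higher in females and 4 in males, and the call toward females was lost without female 10, 12 or 13 or male 1, 2 or 3 and was joined by another without female 7, 8 or 9 or male 5 or 6. Bile duct markers gave 0 calls of 4, with 1 higher in males at an unadjusted p under 0.05, with limma-voom or without female 9, and 0 with DESeq2 (sums 19.6 to 25.1 CPM in females and 22.9 to 31.0 CPM in males). Of 2 tested adipocyte markers, 1, Cidec, was higher in males (1.24-fold). The part of these cell types in the receptor differences was not tested.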

How the data were processed

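Liver RNA of 12 animals was sequenced. The deposited values were raw read counts per gene, with no normalization. Per the submitters' processing notes, Bowtie2 2.0.2, DESeq and the rat build rn4 were used. No counting program, annotation, strand setting or handling of multiply mapped reads is given in the sources used here. In each library 5 rows named no gene (27.1% to 31.7% of counts) and were left out. Libraries of the same sex all differed by more than sampling noise (30 pairs, lowest chi-square over its degrees of freedom 6.02).

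The test was run in edgeR 4.0.16 (R 4.3.3), using filterByExpr (minimum count 10, minimum total 15), TMM factors and the robust quasi-likelihood F test, females over males, with Benjamini-Hochberg adjustment over 9943 genes. DESeq2 1.42.0, limma-voom (limma 3.58.1), other scalings and filters, and leaving out each animal were alternatives. SE is the absolute log2 fold change over the square root of F. Triplets of CPM are the lowest, median and highest of 6 animals. Intervals of count ratios are exact 95% binomial intervals, and they and the floor of 3 counts cover counting error only. On simulated counts for this comparison of 6 against 6 (10003 genes tested), the recovered share was 79.1% at a true change of 1.5-fold, 94% at 2-fold and 100% at 4-fold, and 7 of 189 calls were false (3.7%). The simulation changed 67, 67 and 66 genes at these sizes, where the data had 4298 called genes. All changed genes had more reads than Pparg, Nr4a1, Nr4a2 and Nr2f1. These shares therefore do not carry over to receptor genes with few reads or to a table with so many changed genes.

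The members and lists were chosen with earlier results of these data known. All receptor genes were named, and of each other list up to 3 called genes in each direction with the largest change. Among these, genes whose call was lost when any 1 animal was left out are not described, except Alb, and some of the others are not reported here. The values of Scd1, Lep, Fabp4, Adipoq, Retn, Pecam1, Lyz2, Lcn2 and Csf1r and the pairs of receptors compared were chosen after their values were seen. RefSeq GRCr8 tables served for symbols, of which all 36 matched, and for promoter sequences. That build differs from rn4, and no rn4 coordinates are given. Figures were drawn with matplotlib. No coding lengths were used, so levels of different genes are not ordered by abundance.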

Additional observations from a re-analysis of the deposited data

Results flagged for a closer look

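In 7 of 64 groups of 6 animals (each receptor gene with any counts in each sex), 1 animal stood apart from the others by Dixon's criterion at 95%, for which chance alone flags about 1 in 20 groups. Female 12 had 33.7 CPM of Ppara, against 12.7 to 18.5 CPM in the other females, and 1.96 CPM of Nr2f1 (26 counts), against 0.693 to 1.15 CPM. Female 9 had 141 CPM of Hnf4a, below the 174 to 190 CPM of the other females. Female 13 held the only count of Pgr among the females, at 0.0423 CPM, and a lone count among zeros passes this criterion by construction, so it is no sign of an animal standing apart. Male 2 had 14.0 CPM of Ppard, against 7.63 to 9.78 CPM in the other males. Male 3 had 153 CPM of Nr3c1, against 97.9 to 113 CPM. Male 4 had 2.69 CPM of Nr4a1 (49 counts), against 0.699 to 1.35 CPM. The cause of these was not tested.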

How the results depend on the processing

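All 18 receptor calls were shared with RLE size factors, DESeq2, limma-voom, removal of the 20 most abundant genes and each fit without 1 animal. With a filter at a mean of 1 CPM 17 were shared, since Nr4a1 was no longer tested. Upper quartile factors added Nr3c1, Nr5a2 and Rxrg, library totals added Nr3c1, and no filter added Vdr. Without male 4 and female 12 together, chosen after seeing the data, Rxra was lost and Ppara and Rxrg were gained, so 17 calls were shared and 19 made. Leaving out 1 animal gave 8 to 9 receptor genes higher in females and 10 to 11 higher in males, and 36 to 41 and 51 to 59 of the target, coregulator and ligand genes together, against 39 and 56 with all animals.

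Reversed directions were seen only for uncalled genes near 0. Under RLE, upper quartile factors, library totals, the 1 CPM filter, DESeq2 and without the top 20 genes, the log2 fold change of Rxrb was 0.0088, 0.026, 0.018, 0.011, 0.0073 and 0.013, and that of Hnf4g 0.0082, 0.026, 0.014, 0.012, 0.011 and 0.013, with 0.048 in limma-voom. Without 1 animal, Rxrb ranged from -0.0588 to 0.0412, Hnf4g from -0.0784 to 0.102, Nr2f1 from -0.332 to 0.0261 and Nr3c2 from -0.0190 to 0.0650. The cause was not tested.

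No paired analysis was possible because females and males share no replicate number. The 2 alternatives for the order of receptors by reads were not run, since rescaling within an animal cannot change that order and no coding lengths were used. Depth limits Pparg, Nr4a1, Vdr, Pgr and Nr4a3, which rest on few counts.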
